A study of Homo sapiens with 12 samples.

Results

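The genes that encode the inhibitors of cyclin-dependent kinases (CDKs) were followed in 2 cancer cell lines treated with inhibitors of the co-activators CBP and p300. They were chosen by name, as the rows CDKN1A, CDKN1B, CDKN1C, CDKN2A, CDKN2B, CDKN2C, CDKN2D and CDKN3 of the deposited table, and all 8 were found among its 34687 rows. HCT116 is a human colon cancer line and PANC1 is a human pancreatic adenocarcinoma line. Cells of each line received 0.05% DMSO, the solvent control, or 10 uM ICG-001, which blocks the binding of CBP to β-catenin, or 10 uM C646, which inhibits the acetyltransferase activity of both CBP and p300, and were collected after 12 or 96 h. RNA was hybridized to Illumina expression BeadChips, on which the brightness of labeled RNA bound to a gene's probes (its signal) reports the level of that RNA. Each of the 12 combinations of line, treatment and time had 1 column of signals, averaged by the authors over 2 arrays (over 3 for PANC1 cells with ICG-001 for 12 h). With 1 value per group, no difference described here has a replicate check, an error or a test, and the number of arrays limits the precision. Per the study's methods, the cells for the 96-h treatments were plated more thinly, passaged, and given new medium and drug daily, so duration and growth history cannot be told apart.

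CDK inhibitors hold cells back from dividing. The CIP/KIP proteins p21 (CDKN1A), p27 (CDKN1B) and p57 (CDKN1C) bind whole cyclin-CDK complexes, including those of CDK2. The INK4 proteins p16 (CDKN2A), p15 (CDKN2B), p18 (CDKN2C) and p19 (CDKN2D) bind CDK4 and CDK6 and keep cyclin D away, which keeps RB active and E2F target genes silent. CDKN2A also encodes ARF, an unrelated protein read in another frame. CDKN3 belongs to neither family. It encodes a phosphatase that removes the activating phosphate of CDK2, and it is transcribed mostly in dividing cells, so its RNA commonly follows proliferation. PANC1 cells are known to have lost both copies of CDKN2A. These facts are background and were not measured here.

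The promoters of CDKN1A, whose RNA signal differed most between groups, of the CDKN2A and CDKN2B genes, detected in 1 line alone, and of CDKN3 are shown for their letters. The arrays measured RNA levels, and neither transcription nor RNA stability was measured. A RefSeq promoter (GRCh38.p14, 250 bases before to 50 bases after a transcription start) was found for 7 of the 8 genes, CDKN1C being the exception. In the CDKN1A promoter (chr6:36678464-36678763, plus strand) the capitals mark the GC box GGGCGG, the letters bound by SP1 and SP3. It occurs 4 times, with first bases at positions -104, -94, -45 and -40 relative to the start, and the last pair overlaps.
CDKN1A promoter: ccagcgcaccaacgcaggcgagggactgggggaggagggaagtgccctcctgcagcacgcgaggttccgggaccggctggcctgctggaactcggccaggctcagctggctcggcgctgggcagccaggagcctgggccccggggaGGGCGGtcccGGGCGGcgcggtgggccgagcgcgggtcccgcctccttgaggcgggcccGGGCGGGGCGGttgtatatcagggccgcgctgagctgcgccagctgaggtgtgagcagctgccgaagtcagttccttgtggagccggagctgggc
CDKN2A has 2 starts, 1 for the p16 transcript (chr9:21974808-21975107, minus strand) and 1 for the ARF transcript (chr9:21995275-21995574, minus strand). The GC box, again in capitals, occurs 2 times at the p16 start and at the ARF start not at all. The neighboring CDKN2B start (chr9:22009256-22009555, minus strand) has 2 GC boxes, 1 of them on the opposite strand.
CDKN2A promoter, p16 start: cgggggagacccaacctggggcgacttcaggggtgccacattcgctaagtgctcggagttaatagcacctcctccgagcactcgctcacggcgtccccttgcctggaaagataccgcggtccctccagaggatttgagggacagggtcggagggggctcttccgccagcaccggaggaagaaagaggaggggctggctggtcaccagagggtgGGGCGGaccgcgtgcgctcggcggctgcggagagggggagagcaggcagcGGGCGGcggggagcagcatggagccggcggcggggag
CDKN2A promoter, ARF start: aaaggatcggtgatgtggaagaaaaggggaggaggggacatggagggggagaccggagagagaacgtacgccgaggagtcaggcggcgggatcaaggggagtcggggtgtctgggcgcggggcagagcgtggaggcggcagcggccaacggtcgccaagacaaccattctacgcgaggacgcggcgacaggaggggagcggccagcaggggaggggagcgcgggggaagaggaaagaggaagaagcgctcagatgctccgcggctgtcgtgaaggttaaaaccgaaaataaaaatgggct
CDKN2B promoter: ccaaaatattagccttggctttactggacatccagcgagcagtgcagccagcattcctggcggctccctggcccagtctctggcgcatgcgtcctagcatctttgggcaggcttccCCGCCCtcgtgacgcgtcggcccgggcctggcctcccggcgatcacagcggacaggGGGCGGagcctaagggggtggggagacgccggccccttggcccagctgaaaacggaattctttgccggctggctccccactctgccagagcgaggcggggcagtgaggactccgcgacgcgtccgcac
In the CDKN3 promoter (chr14:54396757-54397056, plus strand) the capitals mark the CCAAT box CCAAT and the cell cycle element CHR, spelled TTTGAA or TTCGAA, both of which are known from promoters of mitotic genes.
CDKN3 promoter: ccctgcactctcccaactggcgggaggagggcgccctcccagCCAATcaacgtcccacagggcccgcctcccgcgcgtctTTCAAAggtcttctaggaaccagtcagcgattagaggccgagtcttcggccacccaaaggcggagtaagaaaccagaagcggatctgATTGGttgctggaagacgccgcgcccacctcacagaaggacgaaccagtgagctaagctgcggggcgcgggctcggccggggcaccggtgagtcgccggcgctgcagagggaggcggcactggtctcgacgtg
It holds 2 CCAAT boxes, 1 on each strand, and 1 CHR on the opposite strand, none of them overlapping. All motifs were searched on both strands. Of 35116 RefSeq promoters of the same length, 45.0% held a GC box, 34.6% a CCAAT box and 16.4% a CHR, so each of these matches is common and describes the letters alone.

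The identity of the cells and the limits of detection were examined first. A column's detection limit, the upper end of its background distribution, corresponded to signals of 143.9 to 145.5 for HCT116 columns and of 137.0 to 139.5 for PANC1 columns. Above it were 43.3% to 45.7% of all genes. Of 10 colon epithelium markers, 5 were above the limit in all HCT116 columns, with the epithelial EPCAM at 6553 to 9562, while VIL1, CDX1, LGALS4 and CDH17 were under it in every HCT116 column. Of 10 pancreatic ductal and PANC1 markers, 9 were above the limit in all PANC1 columns, with VIM at 14637 to 18144. The lists did not separate the lines, since 5 of the 10 colon markers were likewise above the limit in all PANC1 columns and 8 of the 10 PANC1 markers in all HCT116 columns. Leukocyte PTPRC and endothelial PECAM1 were under the limit in both lines, and COL1A1, a fibroblast gene that cancer lines also express, was above it in both. Acinar PRSS1 and beta-cell INS were under it in PANC1, but each was above it in 1 HCT116 column, at 162.5 and 152.4. A signal a little above the limit therefore does not by itself show that a gene was expressed. Each line seems to have been normalized separately, so signals were compared within a line and not between lines.

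The lines differed in which inhibitors were detected at all. CDKN1A, CDKN1B, CDKN1C, CDKN2D and CDKN3 were above the limit in all 12 columns. CDKN2A and CDKN2B were above it in all 6 HCT116 columns and in 0 of 6 PANC1 columns, and CDKN2C in 0 of 6 HCT116 columns and all 6 PANC1 columns. Of the 20783 genes above the limit in any column, 55.5% were above it in all 12, and 4.17% were above it in all columns of one line and in no column of the other, the pattern of 3 of the 8 inhibitor genes. CDKN2B in HCT116 lay at 1.11 to 1.74 times the limit and CDKN2C in PANC1 at 1.09 to 1.25 times. Their pattern therefore depends on where the limit is set. CDKN2A and CDKN2B lie 7.58 kb apart and need not be separate cases, so the 3 of 8 cannot be read as a trait of these genes. By this limit HCT116 cells had signal for 7 of the 8 genes and PANC1 cells for 6. The plot of the signals of all 8 genes shows these gaps as open symbols under the grey band.

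**Figure D1:**
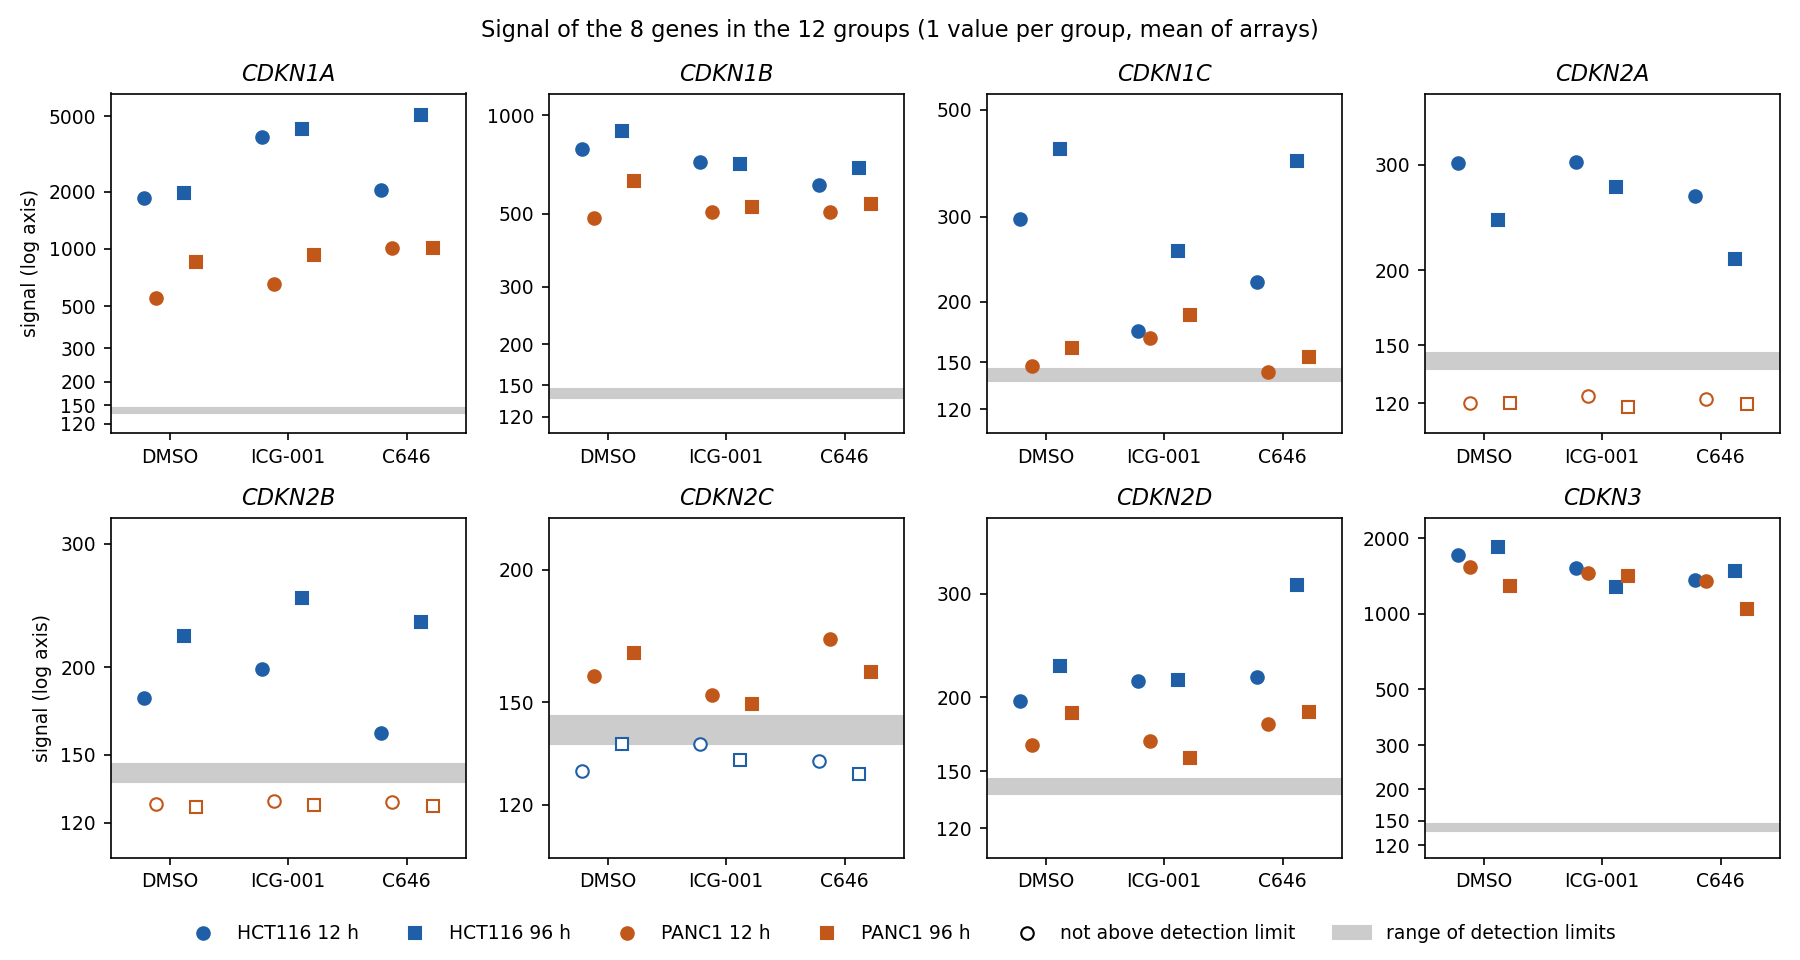
Signal of each gene (log axis) by treatment, for HCT116 (blue) and PANC1 (orange) at 12 h (circles) and 96 h (squares), 1 value per group. Open symbols are not above the detection limit of their column, and the grey band is the range of the 12 limits. CDKN1A in HCT116 lies at 1864 to 2042 with DMSO and with C646 for 12 h, and at 3890.0 to 5072 in the other 3 columns.

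CDKN1A, which encodes p21, was the gene of the 8 that moved most. In HCT116 cells its signal was 1864 with DMSO, 3890.0 with ICG-001 and 2042 with C646 after 12 h. After 96 h it was 1968 with DMSO, 4269 with ICG-001 and 5072 with C646. Sorted by signal, the 2 DMSO columns came lowest and the 12-h C646 column next, below the other 3. ICG-001 came with a 2.09-fold higher signal at 12 h (log2 ratio 1.06) and a 2.17-fold higher one at 96 h (log2 ratio 1.12). At 12 h, 4.96% of the genes tested were at least 1.5-fold higher, and at 96 h 5.2% were. CDKN1A ranked 147 from the top among 16569 genes tested at 12 h and 143 among 16896 at 96 h. C646 gave a log2 ratio of 0.13 at 12 h and of 1.37, or 2.58-fold, at 96 h, where CDKN1A was the gene ranked 11 from the top of 16367 and 1.96% of genes were at least 1.5-fold higher.

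In PANC1 cells CDKN1A was brighter at 96 h than at 12 h already without drug. Its signal was 550.8 with DMSO, 651.4 with ICG-001 and 1006 with C646 after 12 h. After 96 h it was 856.7 with DMSO, 928.3 with ICG-001 and 1007 with C646. The lowest columns were thus the untreated and ICG-001 cells at 12 h, and the highest were both C646 columns. The only drug ratio past 1.5-fold was C646 at 12 h, 1.83-fold with a log2 ratio of 0.87 (rank 322 of 17016), against 4.11% of genes at least 1.5-fold higher. The other drug ratios were 0.24 and 0.12 on the log2 scale for ICG-001 at 12 and 96 h and 0.23 for C646 at 96 h, and with the mean of both DMSO columns as the control they were -0.077, 0.43 and 0.55, so the direction for ICG-001 at 12 h turned. DMSO at 96 h was itself 1.56-fold above DMSO at 12 h (log2 ratio 0.64, with 0.999% of genes at least 1.5-fold higher), and with that mean as the control the 12-h C646 log2 ratio was 0.55, or 1.46-fold, under the threshold.

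The remaining CIP/KIP genes took other courses. CDKN1C, which encodes p57, had signals in HCT116 cells at 12 h of 296.6 with DMSO, 174.2 with ICG-001 and 219.4 with C646. They were 415.2, 254.2 and 391.8 at 96 h. At each time the ICG-001 column was the lowest of the 3. ICG-001 was accompanied by a 1.70-fold lower signal at 12 h (log2 ratio -0.77, rank 306 from the bottom), where 4.27% of genes were at least 1.5-fold lower. At 96 h the signal was 1.63-fold lower (log2 ratio -0.71), with 5.17% of genes at least 1.5-fold lower. The C646 log2 ratios were -0.44 and -0.08, and the first of them passed 1.5-fold after another background correction, normexp (-0.70), and against the mean of both DMSO columns (-0.68). CDKN1C also differed with time without reaching the threshold in DMSO, with a log2 ratio of 0.49 for 96 h over 12 h, and against the mean of both DMSO columns the 96-h ICG-001 ratio was -0.47 and no longer past 1.5-fold. In bulk RNA, fewer cells that express a gene and less of its RNA per cell cannot be told apart.

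In PANC1 cells CDKN1C lay close to the limit. Its signals were 147.0, 168.3 and 143.1 at 12 h and 160.2, 187.9 and 154.1 at 96 h with DMSO, ICG-001 and C646. Here the ICG-001 column was the highest of the 3 at each time, with log2 ratios over DMSO of 0.19 and 0.23, neither past 1.5-fold. These signals were 1.04 to 1.37 times the limit, and since background was left in the values, ratios of so dim a gene understate its differences.

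CDKN1B, which encodes p27, passed 1.5-fold nowhere. Its HCT116 signals at 12 h were 787.8 with DMSO, 719.8 with ICG-001 and 613.2 with C646. They were 897.4, 710.3 and 692.7 at 96 h. Both drug columns lay under the DMSO column of the same time, with log2 ratios of -0.13 and -0.34 for ICG-001 and of -0.36 and -0.37 for C646. In PANC1 the signals were 484.3, 506.9 and 508.5 at 12 h and 631.7, 526.4 and 537.5 at 96 h, so the single high column was DMSO at 96 h and the other 5 lay within 484.3 to 537.5. The p27 protein is known to be set largely by its destruction, which RNA signals do not show.

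Among the INK4 genes no drug ratio reached 1.5-fold in either line. CDKN2A had HCT116 signals at 12 h of 302.4 with DMSO, 303.5 with ICG-001 and 265.9 with C646, and at 96 h of 242.8, 275.2 and 209.1. The lowest column was C646 at 96 h, and that column and 96-h DMSO lay under every 12-h column. The log2 ratios were 0.01 and 0.18 for ICG-001 and -0.19 and -0.22 for C646. Because 1 row stands for the gene, p16 and ARF transcripts were not told apart.

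CDKN2B, a gene 7.58 kb from CDKN2A that is known to respond to TGF-β, had HCT116 signals of 180.8, 198.7 and 161.1 at 12 h and of 221.6, 251.0 and 231.8 at 96 h with DMSO, ICG-001 and C646. Every 96-h column was above every 12-h column, but how many of all genes showed that order was not counted. The drug ratios on the log2 scale were 0.14 and 0.18 for ICG-001 and -0.17 and 0.06 for C646.

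CDKN2D, the p19 gene, had HCT116 signals of 197.5, 213.1 and 217.0 at 12 h and 226.4, 214.0 and 310.2 at 96 h with DMSO, ICG-001 and C646. C646 at 96 h stood above the other 5 columns, at a log2 ratio of 0.45 over DMSO, short of 1.5-fold, and after normexp that ratio was 0.71 and past it. In PANC1 its signals were 165.9, 168.9 and 180.6 at 12 h and 187.9, 157.9 and 188.9 at 96 h. CDKN2C, the p18 gene, was measured only in PANC1, at 158.8, 152.4 and 172.2 at 12 h and 167.0, 149.4 and 160.1 at 96 h. All 6 CDKN2C columns lay within 1.25 times the limit, and ICG-001 gave the lowest signal of the 3 treatments at both times.

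CDKN3, the phosphatase gene, had HCT116 signals at 12 h of 1717 with DMSO, 1528 with ICG-001 and 1359 with C646, and at 96 h of 1853, 1277 and 1475. All 4 drug columns lay below both DMSO columns, but how many of all genes showed that order was not counted. The widest of these differences was ICG-001 at 96 h, with a log2 ratio of -0.54 (1.45-fold), just inside the threshold, and C646 gave -0.34 and -0.33. In PANC1 the signals were 1540.3, 1448 and 1353 at 12 h and 1289, 1413 and 1041 at 96 h. There ICG-001 at 96 h lay above its control, at a log2 ratio of 0.13, and C646 at 96 h was the lowest column, at -0.31.

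Counted over the genes and comparisons with signal, 5 of 28 drug ratios in HCT116 and 1 of 24 in PANC1 reached 1.5-fold, and CDKN1A or CDKN1C gave all 6. Over all genes, 6.81% of such ratios in HCT116 and 5.33% in PANC1 reached it either way, so the PANC1 share of the inhibitor genes was near that of genes at large. In HCT116 with C646 at 12 h, where 4.28% of all genes passed 1.5-fold either way, 0 of 7 inhibitor genes were called, although CDKN1C was called there under the 2 alternatives named above. In PANC1, ICG-001 gave 0 calls of 6 both at 12 h (2.6% of all genes) and at 96 h (7.69%), and so did C646 at 96 h (4.11%). The median log2 ratio of the detected inhibitor genes lay between -0.19 and 0.09 in the 8 drug comparisons, and that of all genes tested between -0.01 and 0.01. Each drug was compared with the same DMSO column of its line and time, so a low or high control moves both drug ratios together.

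**Figure D2:**
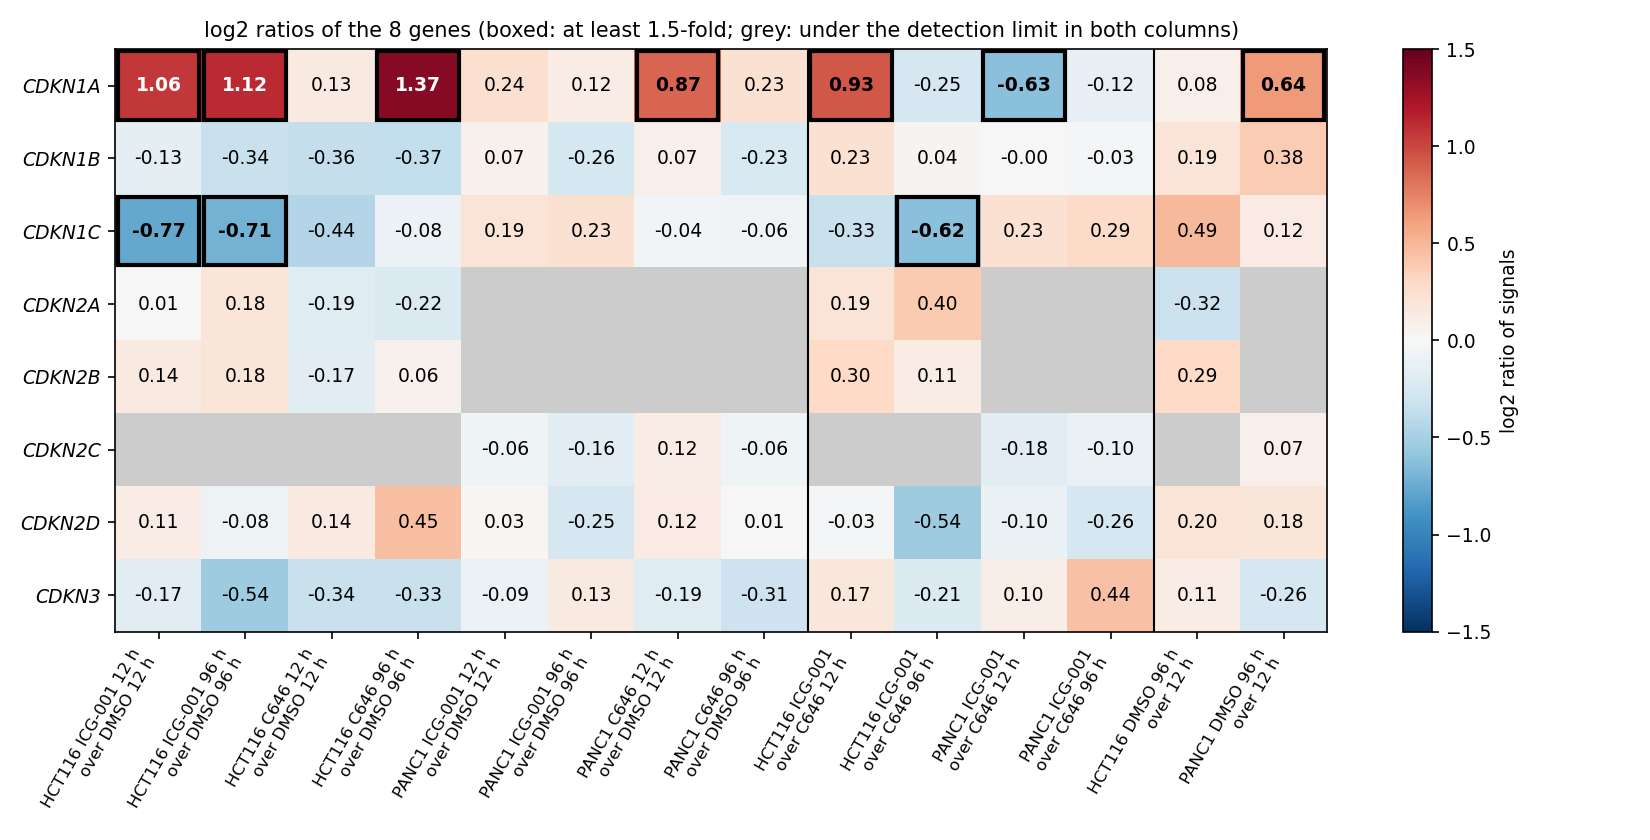
log2 ratios of the 8 genes in the drug comparisons (left block), between the drugs (middle block) and between the DMSO columns (right block). Boxes mark ratios of at least 1.5-fold and grey cells have no ratio because neither column was above the detection limit. All boxes fall in the rows of CDKN1A and CDKN1C.

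**Figure D3:**
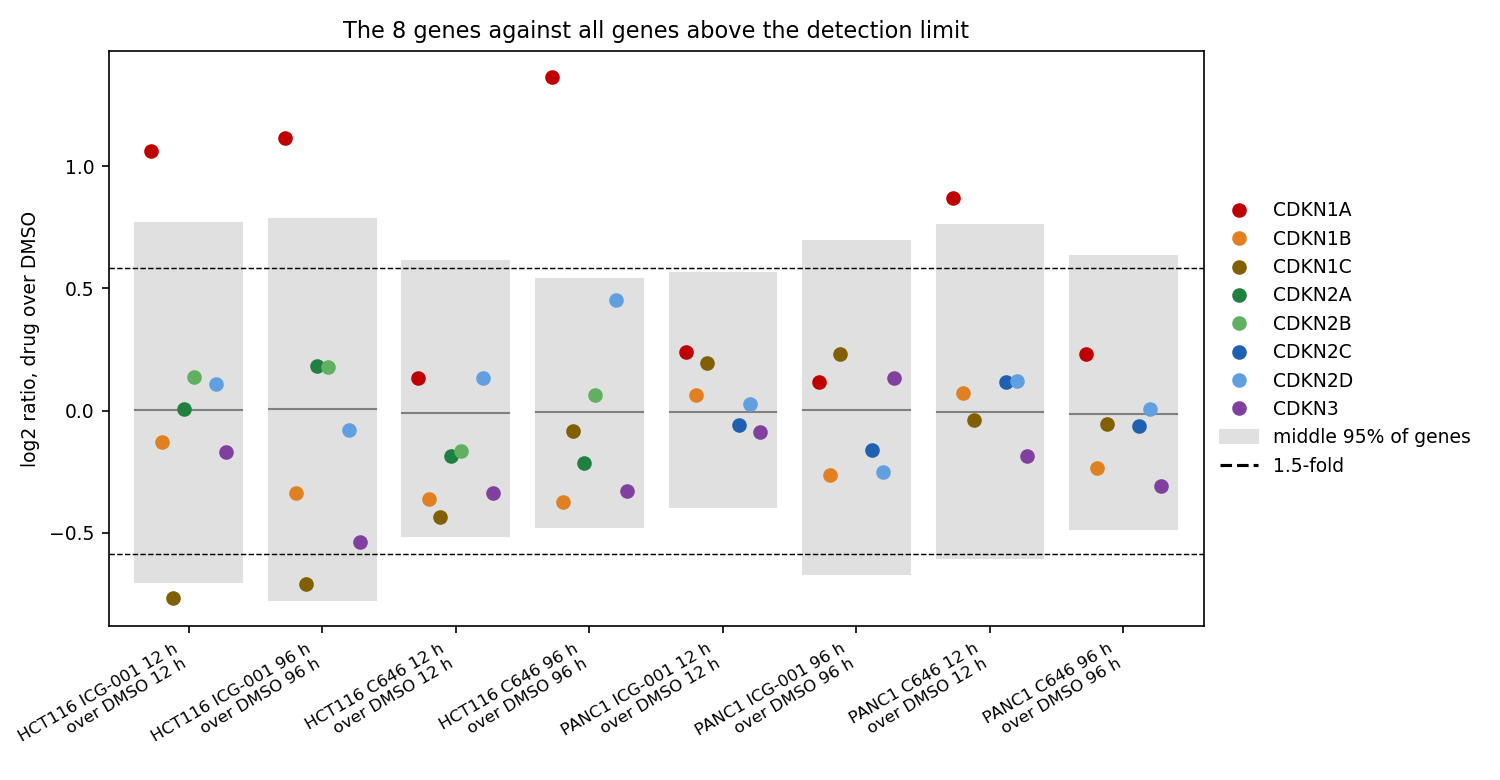
log2 ratios of the inhibitor genes (points) against the middle 95% of all genes above the detection limit (grey bars, median as a line) in the 8 drug comparisons, with 1.5-fold as dashed lines. CDKN1A lies above the grey bar in 4 comparisons, CDKN1C lies below it with ICG-001 at 12 h in HCT116, and the other points lie inside.

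The drugs were also compared with each other at the same dose and time. In HCT116 at 12 h CDKN1A was 1.90-fold higher with ICG-001 than with C646 (log2 ratio 0.93), where 3.58% of genes were at least 1.5-fold higher. At 96 h the CDKN1A ratio was -0.25, and CDKN1C was 1.54-fold lower with ICG-001 (log2 ratio -0.62, with 3.36% of genes at least 1.5-fold lower). Also at 96 h the ratio was -0.54 for CDKN2D and 0.40 for CDKN2A. In PANC1 at 12 h CDKN1A was 1.54-fold lower with ICG-001 than with C646 (log2 ratio -0.63, with 0.968% of genes at least 1.5-fold lower), and at 96 h 0 of 6 inhibitor genes were called, against 7% of all genes either way, with CDKN3 at 0.44. So the drug with the higher CDKN1A signal at 12 h was ICG-001 in HCT116 and C646 in PANC1.

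Over time, the inhibitor genes of HCT116 cells differed most with C646. From 12 to 96 h CDKN1A was 2.48-fold higher (log2 ratio 1.31) and CDKN1C 1.79-fold higher (log2 ratio 0.84), in a comparison where 3.98% of genes were at least 1.5-fold higher. With DMSO 0 of 7 were called (3.17% of all genes either way), and CDKN1A had a log2 ratio of 0.08. With ICG-001, where CDKN1A was already high at 12 h, its log2 ratio over time was 0.13, and 0 of 7 were called (6.98% of all genes). In PANC1 0 of 6 were called over time with ICG-001 (4.13% of all genes) and with C646 (0.495%), and the CDKN1A log2 ratios were 0.51 and 0.0011.

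The kinases and cyclins that the inhibitors bind were read as a first list. Of 4 kinase genes (CDC2, the older name of CDK1, with CDK2, CDK4 and CDK6), 1 passed 1.5-fold in any drug comparison, CDK2 with ICG-001 in HCT116 at 12 h, with a log2 ratio of -0.74. The CDK2 controls themselves differed, with DMSO at 1319 for 12 h and 871.1 for 96 h, while ICG-001 gave 791.5 and 846.3. For the kinase and cyclin calls, the share of all drug ratios past 1.5-fold either way was 6.81% in HCT116 and 5.33% in PANC1. Of 8 cyclin genes, 7 had signal in HCT116. CCND1, cyclin D1, rose with ICG-001 by log2 ratios of 0.99 and 1.10 and CCNE2, cyclin E2, by 0.93 at 96 h. The CCNE2 call rests on a low control, since DMSO was at 476.4 for 12 h and 182.4 for 96 h. ICG-001 gave 357.1 and 348.6 at those times, and its 12-h log2 ratio was -0.42. CCNA2 and CCNB2, the S phase and mitotic cyclins A2 and B2, fell at 96 h with log2 ratios of -0.68 and -0.94. In PANC1 with ICG-001 at 96 h CCNB1 and CCNA2 fell, with log2 ratios of -0.97 and -0.78. CCND2 rose there, at 251.4 against 128.5 with DMSO, a log2 ratio of 0.97. In PANC1 CCND2 was above the limit with ICG-001 alone. C646 gave 1 call in each line, CCND3, cyclin D3, which rose by 0.68 in HCT116 and 0.67 in PANC1 at 12 h.

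Genes that act on the stability of the inhibitor proteins gave the next list. Of 12 genes, 1 rose and 4 fell with ICG-001 in HCT116 at 12 h, and as many of each at 96 h, beside 4.96% of all genes that rose and 4.27% that fell at 12 h, and 5.2% and 5.17% at 96 h. SKP2, the subunit that marks p27 for destruction, had log2 ratios of -0.96 and -0.60 there, and its partner CKS1B rose by 0.82 at 96 h. DTL, which marks p21, had a log2 ratio of -0.67 at 12 h. With C646, CDC20 rose at 12 h, by 0.75 in HCT116 and 0.69 in PANC1, and it was the sole call of the list in either line. In those 12-h comparisons 4.28% of all genes passed 1.5-fold either way in HCT116, and 4.11% rose in PANC1. CDKN1A and CDKN1B proteins were not measured, so what these RNA differences did to them is not shown by these data. Of 8 RB and E2F family genes at most 1 rose and at most 1 fell in any drug comparison. Over all genes 6.81% of drug ratios in HCT116 and 5.33% in PANC1 passed 1.5-fold either way, so these counts do not set the family apart.

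Mitotic genes, 26 in the list, gave a background for CDKN3, since both are known to follow dividing cells. With ICG-001 at 96 h 13 fell in HCT116 and 11 in PANC1, and 0 rose in either, beside 5.17% and 3.7% of all genes that fell. Their median log2 ratio was -0.62 in HCT116, where CDKN3 was at -0.54, and -0.50 in PANC1, where CDKN3 was at 0.13. With C646 at 96 h 0 of 26 fell and 0 rose in either line, the medians were 0.07 and -0.08, and CDKN3 was at -0.33 and -0.31. CDKN3 thus lay near the mitotic median with ICG-001 in HCT116 and farther from it in the other 3 comparisons. CDKN1A was at least 2-fold above DMSO in HCT116 at 96 h under either drug, while the mitotic medians were -0.62 for ICG-001 and 0.07 for C646.

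**Figure D4:**
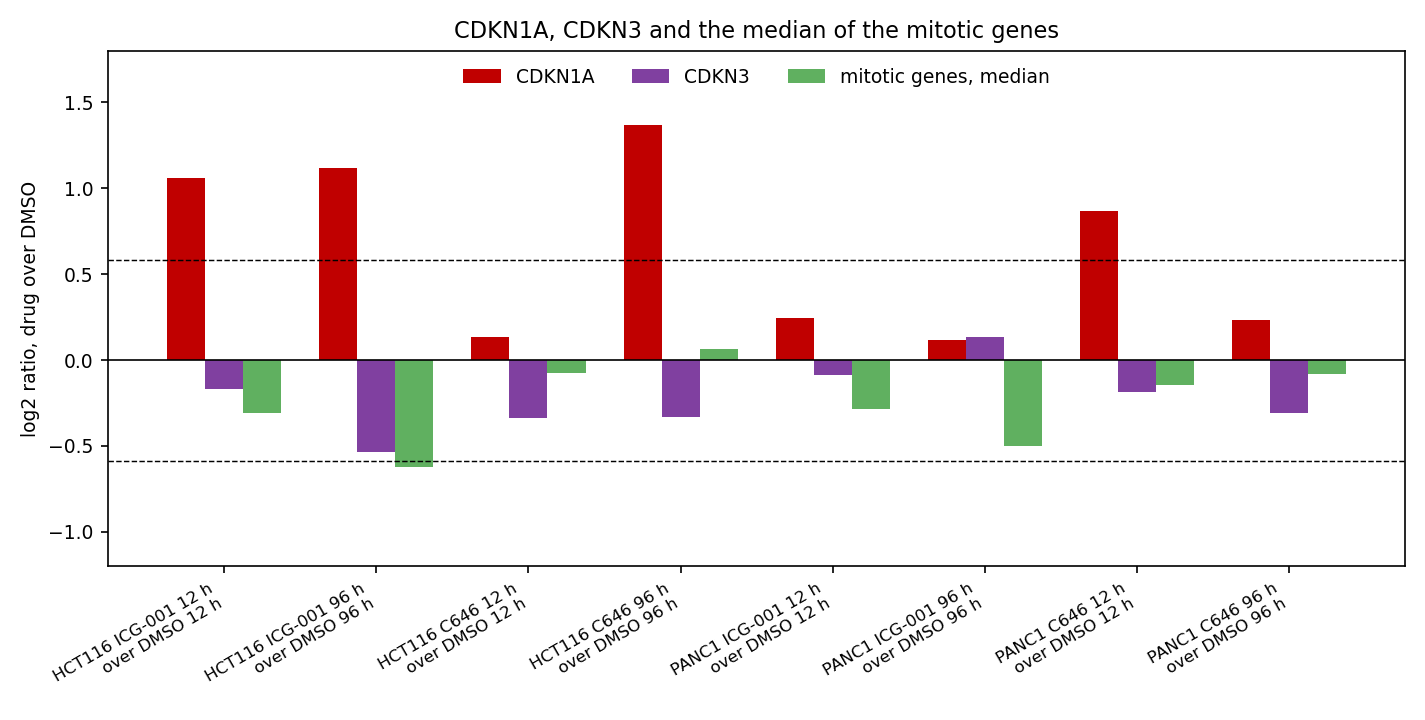
log2 ratios over DMSO of CDKN1A (red) and CDKN3 (purple), and the median log2 ratio of the mitotic genes (green), in the 8 drug comparisons, with 1.5-fold as dashed lines. CDKN1A bars are all above 0, and the CDKN3 bar lies beside the mitotic median with ICG-001 at 96 h in HCT116 and above 0 with ICG-001 at 96 h in PANC1.

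Of 27 genes that are known to regulate transcription of the inhibitors, 25 had signal in HCT116. DDIT3, a transcription factor of the stress response, rose most there, with ICG-001 by log2 ratios of 2.52 at 12 h and 1.90 at 96 h. MYC, a repressor of CDKN1A and CDKN2B, fell with ICG-001 in HCT116 at 96 h, with a log2 ratio of -0.98 and had one of 0.35 at 12 h. KLF6 and FOXO3, known activators of CDKN1A, rose in HCT116 with ICG-001 at 12 h, by 0.94 and 0.71, and FOXO3 also in PANC1 at 12 h, by 0.61. TBX2, a repressor of CDKN2A and CDKN1A, was under the limit in HCT116 and fell in all 4 PANC1 comparisons, with log2 ratios of -0.66 to -0.90. The genes named here are a selection, and the numbers of regulators that rose or fell are not given. The named genes therefore do not show which way the list went. Over the HCT116 columns KLF4 (440.5 to 1316), TFAP2C (207.1 to 514.7), RUNX3 (416.4 to 843.1) and SMAD3 (399.9 to 827.0) also ranged widely. Their directions by drug are not given here. With ICG-001 in HCT116, 4.96% of all genes rose at 12 h and 5.2% at 96 h, and 5.17% fell at 96 h. In PANC1, 58 of 16693 genes fell with ICG-001 at 12 h and 617 of 16698 at 96 h. With C646 472 of 17016 fell there at 12 h and 203 of 16647 at 96 h. At 12 h in PANC1 376 of 16693 genes rose with ICG-001 and 699 of 17016 with C646. Whether any regulator changed an inhibitor gene was not tested.

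The undetected INK4 genes of PANC1 were set beside their chromosomal neighbors (GRCh38.p14, chromosome 9, from MTAP at 21802636 through CDKN2A at 21967752 and CDKN2B at 22002903 to DMRTA1 at 22446824, by first base). In PANC1 CDKN2A lay at 118.2 to 123.5 and CDKN2B at 126.2 to 128.9, both under the limit in all 6 columns. MTAP, the neighbor on one side, which encodes an enzyme of methionine salvage, lay at 120.7 to 137.9 in PANC1 and was above the limit in 1 of 6 columns, with ICG-001 at 96 h. In HCT116 it lay at 1503 to 3439. DMRTA1, the neighbor on the other side, was above the limit in 5 of 6 PANC1 columns and in 0 of 6 HCT116 columns. CDKN2BAS, the antisense RNA that runs across CDKN2B, was under the limit in all 12 columns. IFNE, listed with this locus, was above the limit in 6 of 6 HCT116 columns, at 145.7 to 164.7, and in 0 of 6 PANC1 columns. IFNE1 was above it in 2 HCT116 columns and 0 PANC1 columns. RNA signals near background do not tell a missing gene from a silent one.

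**Figure D5:**
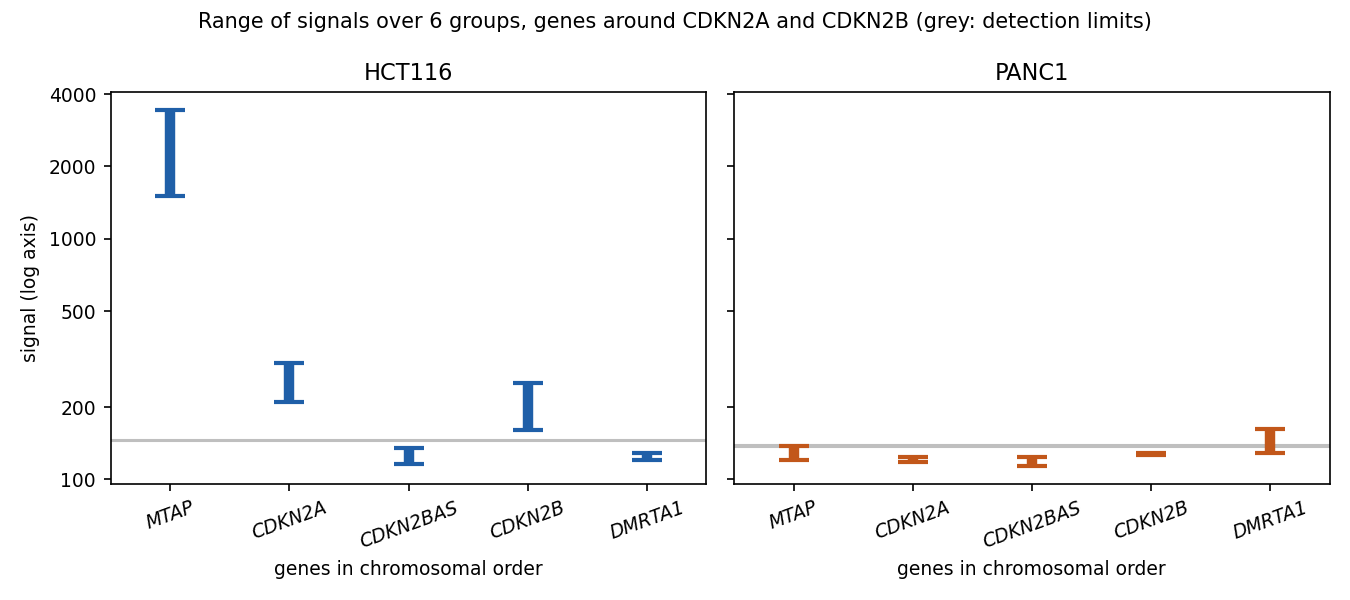
Lowest to highest signal over the 6 groups of each line (log axis) for MTAP, CDKN2A, CDKN2BAS, CDKN2B and DMRTA1, ordered by first base on chromosome 9, with the detection limits in grey. MTAP, CDKN2A and CDKN2B lie above the grey line in HCT116 and at or under it in PANC1, apart from 1 PANC1 column of MTAP.

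MTAP was also the neighbor that moved in HCT116, where ICG-001 gave log2 ratios of -0.81 and -1.19, while CDKN2A had 0.01 and 0.18. CDKN1C lies in an imprinted cluster on chromosome 11, and 10 of its neighbors were followed. PHLDA2, a placental growth regulator of the same cluster, rose in all 4 HCT116 drug comparisons, and its ICG-001 log2 ratios were 1.00 and 1.13, at the times when CDKN1C fell. CARS, a tRNA synthetase gene, rose by 0.82 with ICG-001 at 96 h. KCNQ1OT1, the antisense RNA of the cluster, had log2 ratios of -0.06 and 0.14. With ICG-001 in HCT116 0 of the 8 neighbors that had signal were called lower, which does not show that none was lower. Among all genes the share called lower by this drug was 4.27% for the earlier time, against 5.17% for the later one. A count of 0 of 8 therefore does not set CDKN1C apart from its cluster. The shares called higher were 4.96% and 5.2%, and how many genes rose in all 4 HCT116 comparisons was not counted. H19 and KCNQ1OT1 were dim in HCT116, at 123.2 to 174.1 and 144.8 to 168.2, where the background left in the values compresses ratios.

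The genes most like each inhibitor were sought by Pearson's r over the 12 columns of log2 signal, centred within each line, among 8015 named genes above the limit in all columns. The columns share controls and arrays, and with so many genes searched a high r is a description alone. CDKN1A was most like SNORD3C (0.93), NDE1 (0.92) and SNORD3D (0.91). CDKN1C was most like PLD2 (0.99), HK1 (0.97) and FKBP1B (0.96). CDKN1B was most like ZNF518B (0.91), CDKN2D most like ANGPTL4 (0.92), and CDKN3 most like METAP2 (0.93), with RNF11 (0.92) and CDK8 (0.90) next. CDKN2A, CDKN2B and CDKN2C had background signal in 1 line each, so their likeness rests mostly on the other line, and their nearest genes were RBM39 (0.92), CAPRIN2 (0.96) and MDC1 (0.82). SNORD3C and SNORD3D are near-identical copies whose rows may share signal. No inhibitor gene appeared among the 3 nearest genes of another. CDKN2A, CDKN2B and CDKN2C could not appear, since they were not above the limit in all columns and so were not searched. With only the 3 nearest genes kept, the absence of the others does not show that the inhibitor genes moved apart.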

How the data were processed

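RNA of HCT116 and PANC1 cells was measured on Illumina HumanHT-12 BeadChips. The table deposited by the authors holds linear signal intensity for 1 row per gene name, quantile normalized in GenomeStudio with the background left in, then averaged over arrays. Per the labels, 2 arrays stand behind each of 11 columns and 3 behind the other. The GenomeStudio version and the genome build of the array annotation are not given in the sources used here, nor are the probes behind a row, so a row may average several transcripts. Single arrays were not analysed here.

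Groups came from the sample titles. log2 ratios were taken between 2 columns of a line, for genes above the detection limit (the background peak of a column plus a fixed multiple of the SD below the peak) in at least 1 of them, and a ratio of at least 1.5 either way was counted and is what "rose" and "fell" mean. No test was run. Sorted log2 columns differed by 0.0037 to 0.0093 on average within a line and by 0.0628 to 0.0661 between lines. The SD of the log2 ratios of genes that passed the limit in no column was 0.0625 to 0.0743.

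All 8 genes are named. From other lists at most the 3 largest rises and falls past 1.5-fold per comparison are named. Also named are MYC, SKP2, the kinases, most cyclins, some chromosomal neighbors, and up to 3 of the genes most like each inhibitor. A regulator and a list tied to it are not reported here. The genes and lists were chosen with earlier results of these data known. Symbols, positions and promoters came from RefSeq (GRCh38.p14), and 17755 of the 34687 rows carry a current symbol. Rows with an older name were joined through its synonyms.

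Alternatives were thresholds of 1.2-fold and 2-fold, no filter, a limit at 5 SD, normexp (offset 16) with quantile normalization within a line, median-centred ratios, quantile normalization over all 12 columns, and the mean of both DMSO columns as control. Python 3.11.15, numpy 2.4.6, pandas 2.3.3, matplotlib 3.10.9, R 4.3.3 and limma 3.58.1 (normexp) were used. The counting of fold changes was run on simulated data, with 2-fold shifts given to bright genes and noise of the size seen in background genes. That run checks the counting alone. It covers neither dim genes nor the spread between replicates.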

Additional observations from a re-analysis of the deposited data

Results flagged for a closer look

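CDKN1C, the p57 gene, had log2 ratios of ICG-001 over DMSO of opposite sign in the 2 lines. In HCT116 the 12-h ratio was -0.77 and the 96-h ratio -0.71, against 0.19 and 0.23 for PANC1, and the mean ratio of HCT116 minus that of PANC1 was -0.95. Each value rests on 1 column per group, the PANC1 ratios were short of 1.5-fold, and the difference between the lines was not tested. Of 13768 genes with signal in both lines, 1372 (9.97%) likewise had both ICG-001 ratios of one sign in HCT116 and both of the other sign in PANC1.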

How the results depend on the processing

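No paired analysis was possible because each group had 1 column of values, and for the same reason no replicate could be left out. The threshold decided the counts of inhibitor genes past it. At 1.2-fold, 13 drug ratios passed in HCT116 and 3 in PANC1, 6 and 3 between the drugs, and 3 and 2 between the DMSO columns. Over all genes 27.7% of drug ratios passed 1.2-fold in HCT116 and 24.3% in PANC1, 28.6% and 23.7% between the drugs, and 22.4% and 15.6% between the DMSO columns, so the drug count in PANC1, 3 of 24, was a smaller share than that of all genes. At 2-fold, 3 drug ratios passed in HCT116 and 0 in PANC1, 0 and 0 between the drugs, and 0 between the DMSO columns of PANC1. Over all genes 1.27% of drug ratios passed 2-fold in HCT116 and 1.18% in PANC1. Between the drugs 1.38% and 0.84% passed it, and between the DMSO columns of PANC1 0.18%, so counts of 0 say little about the inhibitor genes. With normexp 8 drug ratios passed in HCT116, where CDKN1C with C646 at 12 h (-0.70), CDKN2D with C646 at 96 h (0.71) and CDKN3 with ICG-001 at 96 h (-0.59) were added. The share of all drug ratios that passed was then 16.3% in HCT116 and 13.2% in PANC1. Between the drugs 6 ratios passed in HCT116 and 2 in PANC1, beside 16.8% and 12.1% over all genes. Between the DMSO columns of HCT116 1 passed, beside 9.89% over all genes. With the mean of both DMSO columns as control, 0 drug ratios passed in PANC1, and in HCT116 CDKN1C lost its call with ICG-001 at 96 h (-0.47) and gained one with C646 at 12 h (-0.68). Over all genes 5.30% of drug ratios passed with that control in PANC1 and 7.79% in HCT116. The CDKN1A log2 ratio of PANC1 with C646 at 12 h was 0.97 with normexp and 0.55 with both DMSO columns, which also gave -0.077 and 0.43 for ICG-001 at 12 and 96 h and 0.55 for C646 at 96 h. The CDKN1A calls in HCT116 held under each alternative that recomputed the ratio. Of 176 ratios of the other genes under the 4 alternatives that recompute them, 166 kept their direction. The 88 of them under median centring and quantile normalization over all columns moved by less than the spread of background genes, whereas 32 of 44 moved by more with both DMSO columns and 21 of 44 with normexp. Dim genes, CDKN1C and CDKN2C in PANC1 above all, are the ones whose ratios the remaining background compresses.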
